A study of Mus musculus with 9 samples.

Results

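The miR-18 and miR-19 families are 2 groups of microRNAs (miRNAs) that are cut from the same primary transcripts but read different target sites. Their 4 probes on the array were found by name: miR-18a, miR-19a and miR-19b under names shared by human and mouse, and miR-18b under its human name only. These are 4 of 582 miRNA probes. They were followed in marrow of 5 untreated mice and of 3 mice sampled 4 days after 1 intraperitoneal injection of 150 mg/kg 5-fluorouracil (5-FU). All 8 animals were C57Bl6/J females, 6 weeks old and with no other treatment or allele named in the labels. Whole marrow was freed of red cells by lysis before RNA isolation in both groups. 5-FU, an antimetabolite, kills cells that divide, so treated marrow can hold other proportions of cell types than untreated marrow. In these bulk samples fewer cells of a type and less of the miRNA per cell cannot be told apart.

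Both families come mainly from the miR-17-92 cluster, a polycistronic transcript that Myc and E2F factors switch on in dividing cells and that is needed for normal B cell development. The primary transcript folds into a hairpin for each miRNA, and Drosha and then Dicer cut each hairpin out, so that levels of the mature miRNAs can differ although the transcript is shared. miR-19 is the best-known oncogenic part of the cluster in mouse B cell lymphoma. miR-18a is known for a separate control step, in which the RNA-binding protein hnRNP A1 binds its hairpin and promotes its cutting.

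The mature mouse sequences of RefSeq (build GRCm38.p6) are shown because the seed, bases 2 to 8 in capitals, defines the families. All 4 members had an entry.
miR-18a: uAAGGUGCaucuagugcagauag
miR-18b: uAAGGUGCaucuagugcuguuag
miR-19a: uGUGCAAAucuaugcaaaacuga
miR-19b: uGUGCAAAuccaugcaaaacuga
Counted from the 5′ end, mouse miR-18a and miR-18b are identical at 21 of 23 bases and differ by A18U and A20U. The miR-18b probe carries a human name and its own sequence was not used here. miR-19a and miR-19b differ by U11C alone and are identical at the other 22 bases. The deposited files do not say how far such close probes read each other's miRNA, and how much signal miR-18a shares with miR-18b, or miR-19a with miR-19b, was not tested.

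The other seeds of the same transcripts are shown by miR-17, miR-20a and miR-92a, whose values are compared with the members below.
miR-17: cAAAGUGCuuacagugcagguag
miR-20a: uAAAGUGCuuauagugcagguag
miR-92a: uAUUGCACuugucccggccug
The miR-18 seed differs from that of miR-17 and miR-20a at 1 base (G4A, from miR-18a to miR-20a), and miR-18a and miR-20a are identical at 19 of 23 bases. miR-18a and miR-19a are identical at 5 of 23 bases when aligned from the 5′ end.

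The genes lie in 2 clusters. Mature miR-18a lies at chr14:115043867-115043889 and mature miR-19a at chr14:115044048-115044070, both on the plus strand within the miR-17-92 cluster, whose 6 hairpins span 836 bases. miR-18b lies at chrX:52742381-52742403 on the minus strand within the miR-106a-363 cluster, whose 6 hairpins span 875 bases. The same mature miR-19b is made at chr14:115044358-115044380 and at chrX:52741991-52742013, so its signal sums both genes. The hairpin of miR-18a is shown, with the mature arm in capitals, because a separate probe on the array is named for it.
Mir18 hairpin: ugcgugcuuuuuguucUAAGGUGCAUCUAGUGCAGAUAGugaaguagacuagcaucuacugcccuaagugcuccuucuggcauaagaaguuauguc

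The assay ligates adaptors to small RNA, amplifies it by PCR, captures the product on probe-coupled beads and reads fluorescence. Each animal has 1 array except 5-FU animal 1, which has 1 in each of the 2 profiling batches. Every untreated array belongs to batch 1, and 5-FU animals 2 and 3 were profiled in batch 2 alone. Levels below are the authors' normalized log2 signal, in which 3 is the detection floor, and the 2 arrays of 5-FU animal 1 were averaged. Summed raw fluorescence was 336483 to 679696 units per array, and precision is limited by how few arrays there are. All 7 haematopoietic marker miRNAs were above the floor in every animal, led by miR-144, miR-451, miR-223 and miR-142-3p at a mean of 12.61 to 13.27 in untreated marrow. The liver marker miR-122 and the neural markers miR-124 and miR-9 did not exceed 4.47 in any animal.

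All 4 members were lower in treated marrow. Over all tested probes, 25.1% were called lower (95 of 379 probes, limma with Benjamini-Hochberg adjustment, adjusted p under 0.05), and the median change was -0.16 on the log2 scale. Among the 158 probes above log2 7 in at least 3 animals, to which all members belong, 44.3% were called lower, and there 3 of the 4 members passed, with miR-19b at an adjusted p of 0.0705 (limma). The median change of the 4 members was -1.001. The miR-18 members had the larger falls, miR-19a an intermediate one and miR-19b the smallest. The deposited columns had lower totals in the batch without untreated arrays, so all these changes include that offset. After the deposited values were rescaled to an equal total, the median change of all probes was -0.02, with 79 called lower and 86 higher. There miR-19b was at -0.16 (limma adjusted p = 0.149), and the other 3 members were still called lower.

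miR-18a, known to repress Ccn2, the gene of connective tissue growth factor, had log2 signals of 11.76, 11.22, 11.85, 11.70 and 11.72 in untreated animals 1 to 5. In treated marrow it read 10.58 and 10.62 on the 2 arrays of animal 1, 10.22 in animal 2 and 10.52 in animal 3. All 4 treated arrays lay below all untreated ones, and untreated animal 2 was the lowest of its group. The mean fell from 11.65 ± 0.25 (SD, n = 5) to 10.45 ± 0.20 (SD, n = 3). The change was -1.20 on the log2 scale (SE 0.16, 95% interval -1.59 to -0.82, limma adjusted p = 0.00215), a 2.30-fold lower signal.

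miR-18b, encoded on the X chromosome, had log2 signals of 11.19, 10.42, 11.49, 11.18 and 11.21 in untreated animals 1 to 5. Treated marrow read 10.07 and 9.82 on the 2 arrays of animal 1, 9.41 in animal 2 and 9.78 in animal 3. The groups did not overlap, although untreated animal 2 lay only 0.48 above the highest treated animal. The mean fell from 11.10 ± 0.40 (SD, n = 5) to 9.71 ± 0.27 (SD, n = 3), a change of -1.38 (SE 0.25, 95% interval -1.98 to -0.79, limma adjusted p = 0.00598). Its ups and downs followed those of miR-18a closely: over the 8 animals the deviations from the group means correlated at r = 0.988. The points share arrays and, as shown above, nearly the same sequence.

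miR-19a had log2 signals of 11.53, 11.30, 11.71, 11.68 and 11.67 in untreated animals 1 to 5. Treated marrow read 11.09 and 10.84 on the 2 arrays of animal 1, 10.58 in animal 2 and 10.78 in animal 3. All treated arrays lay below all untreated ones. The mean fell from 11.58 ± 0.17 (SD, n = 5) to 10.78 ± 0.19 (SD, n = 3), a change of -0.80 (SE 0.12, 95% interval -1.09 to -0.51, limma adjusted p = 0.00356) and a 1.74-fold lower signal.

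miR-19b had log2 signals of 12.36, 12.33, 12.10, 12.31 and 12.30 in untreated animals 1 to 5. Treated marrow read 12.21 and 12.03 on the 2 arrays of animal 1, 11.91 in animal 2 and 11.94 in animal 3. The groups overlapped, because untreated animal 3 lay below the mean of 12.12 for treated animal 1. The mean fell from 12.28 ± 0.11 (SD, n = 5) to 11.99 ± 0.12 (SD, n = 3), a change of -0.29 (SE 0.08, 95% interval -0.48 to -0.11, limma adjusted p = 0.0235). Its call was lost without untreated animal 4 or 5 (limma adjusted p = 0.0550 and 0.0537) and without 5-FU animal 2 or 3 (adjusted p = 0.0974 and 0.0884), where 20.1%, 21.1%, 16.9% and 17.4% of probes were called lower. The other 3 members passed with each animal left out. Over all tested probes, 25.6% had all 3 treated animals below all 5 untreated ones, as did 3 of the 4 members.

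**Figure D1:**
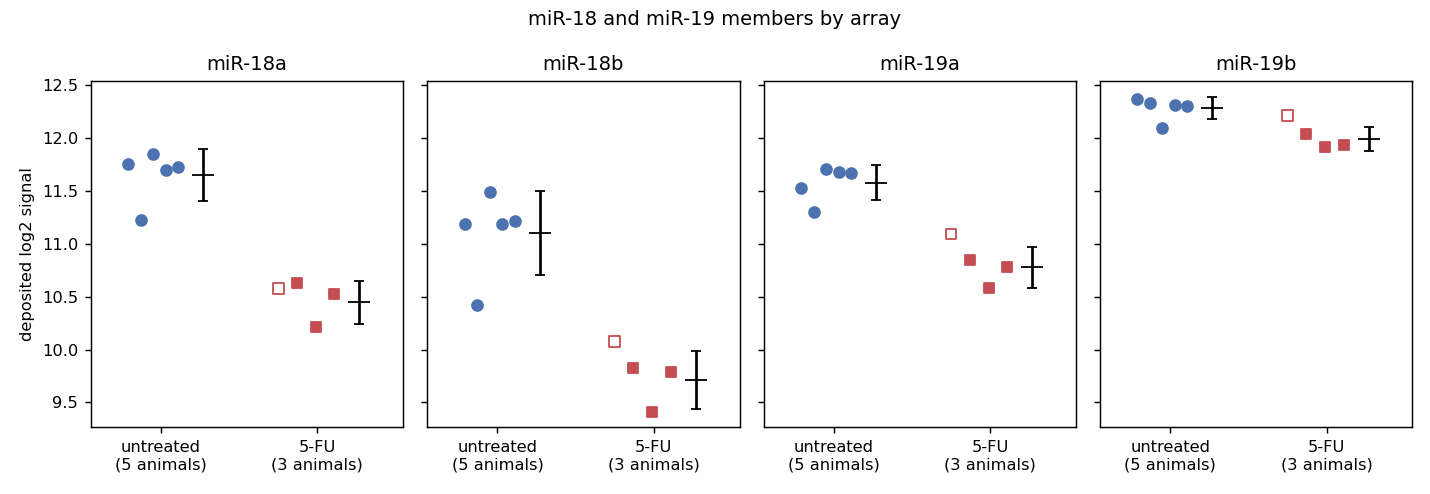
Deposited log2 signal of each member on every array. Circles are untreated animals, filled squares batch 2 arrays and the open square the batch 1 array of treated animal 1, and bars give mean ± SD over animals (5 untreated, 3 treated, the 2 arrays of animal 1 averaged). miR-18a, miR-18b and miR-19a separate the groups on every array, while miR-19b overlaps.

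In the authors' deposited table, which counted the 2 arrays of 5-FU animal 1 separately, the false discovery rates were 0.00111 for miR-18a, 0.00361 for miR-18b, 0.00642 for miR-19a and 0.0411 for miR-19b. Of the 168 probes in the authors' deposited table with such a value, 43.5% were lower with a false discovery rate under 0.05. That test shares its arrays with the one above.

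The raw fluorescence behind these values was far above background for every member. miR-18a gave 1954.5 to 6497 units in untreated and 1444 to 2702 in treated arrays, against 28 in the higher of the water wells. miR-19a gave 2053.5 to 5870 and 2035 to 3775 units, with a background of 14. miR-19b gave 4185 to 7707 and 4410.5 to 6241 units, with a background of 24. Before normalization the groups thus overlapped in all 3, and also in miR-18b, at 1128 to 5049 and 1016 to 2427.5 units.

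The comparison was repeated by batch, because batch 2 holds no untreated array. Within batch 1, with 1 treated array against 5 untreated ones, the change was -1.07 for miR-18a, -1.03 for miR-18b, -0.48 for miR-19a and -0.07 for miR-19b. There 0 of the 4 passed (limma; 2 had an unadjusted p under 0.05), where 2.11% of probes were called lower. In a fit of group and batch to all 9 arrays, whose group change equals that within batch 1, only miR-18a passed (limma adjusted p = 0.0436), and 7.39% of probes were called lower. The 2 arrays of treated animal 1 entered that fit separately. The adjusted p in that fit was 0.179 for miR-18b, 0.165 for miR-19a and 0.809 for miR-19b. In treated animal 1, profiled in both batches, the batch 2 array differed from the batch 1 array by 0.05 for miR-18a, -0.25 for miR-18b, -0.25 for miR-19a and -0.18 for miR-19b. With the batch 1 array alone for this animal, 3 of the 4 members passed and miR-19b did not (-0.26, limma adjusted p = 0.0887), where 19.5% of probes were called lower. With the batch 2 array alone all 4 passed, where 26.1% were called lower.

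The deposited batch 2 columns also differ from the raw ones by an amount particular to each probe and shared by the 3 arrays. Relative to the median of its bead pool, this term averaged 0.16 for miR-18a, -0.49 for miR-18b, -0.11 for miR-19a and 0.35 for miR-19b, against an SD of 0.50 over 180 probes. Raw values scaled to an equal total per array, which lack it, gave changes of -1.01 for miR-18a (limma adjusted p = 0.0111), -0.65 for miR-18b (0.146), -0.38 for miR-19a (0.0786) and -0.26 for miR-19b (0.0320). In that scaling 2 of the 4 members passed, miR-18a and miR-19b, where 7.65% of all probes were called lower and the median change was 0. After quantile normalization of the raw values all 4 passed, with changes of -0.96, -0.64, -0.40 and -0.16 in the same order, where 12.4% of probes were called lower. Scaled to the precontrol beads, 0 of 4 passed (limma; 1 had an unadjusted p under 0.05), with changes of -0.90, -0.54, -0.27 and -0.15, and 0.264% of probes were called lower. miR-18a stayed between -1.31 and -0.73 over all 22 alternatives, and its lower call held in 20 of them. The alternatives reuse the same arrays and are not independent checks. Except for the fits by batch, they leave treatment mixed with batch. miR-18b ranged from -1.55 to -0.54 (18 of 22 called lower), miR-19a from -0.90 to -0.27 (17 of 22) and miR-19b from -0.36 to 0.18 (10 of 22). Centring the deposited values on the median raised the median change of all probes to 0.31 and turned miR-19b above 0, at 0.18 (limma adjusted p = 0.523), with miR-19a at -0.33 (0.148). There 2 of the 4 members were called lower, beside 14.5% of probes. Deposited values rescaled to an equal total kept 3 members (20.8% of probes lower) and put miR-19b at -0.16 (limma adjusted p = 0.149).

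**Figure D2:**
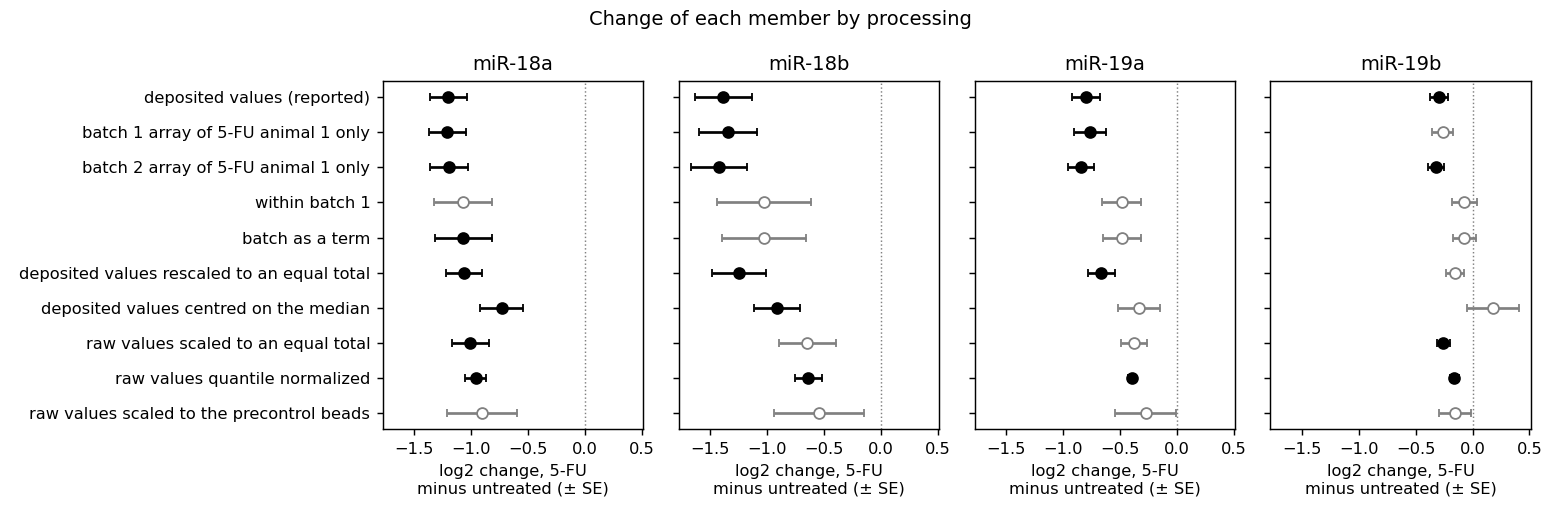
Change of each member (5-FU minus untreated, log2) with its SE from limma, for the reported fit and 9 other choices of array, batch handling and scaling. Filled black points passed an adjusted p of 0.05 and open grey points did not. miR-18a lies between -1.21 and -0.73 in all 10, and miR-19b crosses 0 after median centring.

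Within the untreated group the levels of the members differed between the arrays with the lowest and the highest total signal. Each deposited untreated column was made from a raw column labelled with another untreated animal, so totals were matched through the values. The array behind untreated animal 2 was the weakest, with a log2 total of 18.36, and that behind untreated animal 3 the strongest, at 19.37. From the weakest to the strongest, miR-18a went from 11.22 to 11.85, miR-18b from 10.42 to 11.49 and miR-19a from 11.30 to 11.71, whereas miR-19b went from 12.33 to 12.10. Untreated animals 1, 4 and 5 had totals of 18.72, 18.91 and 18.94. In that order miR-18a read 11.76, 11.70 and 11.72, miR-18b 11.19, 11.18 and 11.21, and miR-19a 11.53, 11.68 and 11.67. The batch 1 array of treated animal 1 had a total of 18.55, near the weakest untreated array. Against that untreated array alone it was lower by 0.64 for miR-18a, 0.35 for miR-18b, 0.21 for miR-19a and 0.12 for miR-19b. All 4 treated arrays lay below the weakest untreated array in each of the 4 members. For miR-19b, however, the batch 1 treated array (12.21) lay above the strongest untreated array (12.10). The batch 2 arrays had totals of 18.95 to 19.17, so the weakest untreated array is not their match. The part of the array total in the changes was not tested.

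**Figure D3:**
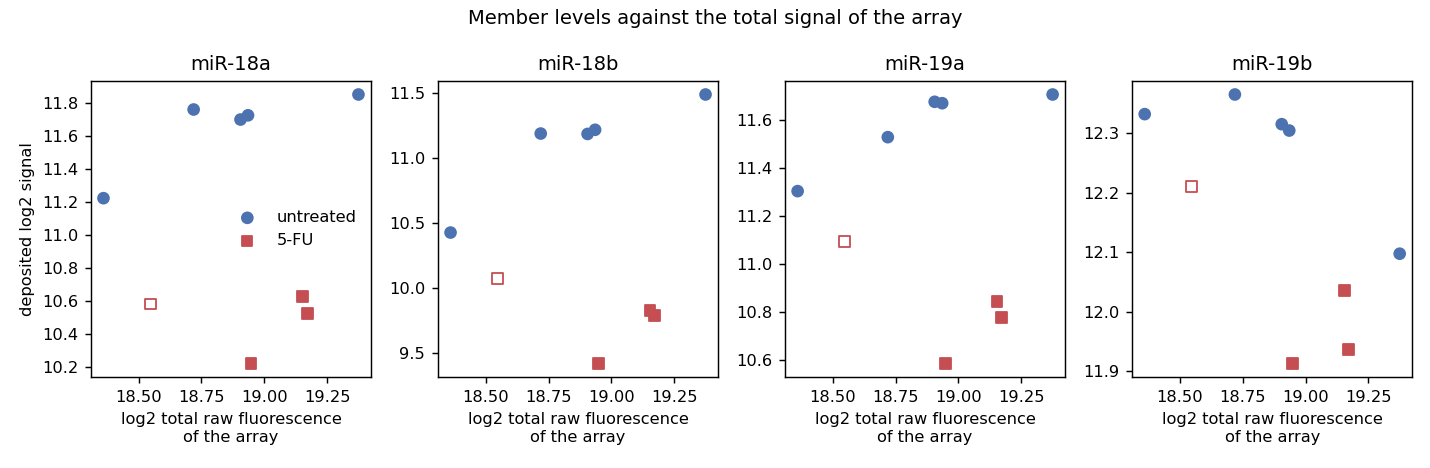
Deposited log2 signal of each member against the log2 total raw fluorescence of the array it was made from. Circles are untreated animals, filled squares batch 2 arrays and the open square the batch 1 array of treated animal 1. In the untreated animals 3 members are lowest on the weakest array (18.36), while miR-19b is lowest on the strongest (19.37).

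Whether the families changed unequally was asked with log2 ratios within an animal, in which a factor common to a whole array cancels because all 4 probes lie in the same bead pool. A ratio of 2 probes says nothing about which miRNA is more abundant, and only its difference between groups is used. The ratio of miR-18a to the mean of miR-19a and miR-19b was -0.19, -0.60, -0.05, -0.30 and -0.26 in untreated animals 1 to 5, and -0.94, -1.03 and -0.83 in treated animals 1 to 3. Every treated animal lay below every untreated one. The difference was -0.66 (two-sided p = 0.0357 by exact permutation), with -0.79 within batch 1 and -0.69 in the raw values. The two-sided p doubles the smaller tail, and under that rule 0.0357 is the smallest that the 56 splits allow. The SD of the ratio was 0.20 (n = 5) and 0.10 (n = 3), so the difference exceeded the spread between animals. Among untreated animals the ratio was nevertheless lowest on the weakest array, at -0.60, and highest on the strongest, at -0.05. It was -1.07 on the batch 1 array of treated animal 1, whose total was near that of the weakest. The part of the array total in the difference was not tested.

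The same comparison was made for single pairs. The treated minus untreated difference of the log2 ratio was -0.40 for miR-18a to miR-19a, -0.91 for miR-18a to miR-19b and -0.51 for miR-19a to miR-19b, and in each of these pairs the groups did not overlap. For miR-18a to miR-18b it was 0.18 (exact permutation p = 0.107, two-sided), and in the raw values it was -0.36, where the groups separated in the other direction (exact permutation p = 0.0357). Of 15 pairs, 0 passed after Benjamini-Hochberg adjustment over the pairs (lowest adjusted p = 0.0536, exact permutation), and 10 had an unadjusted p of 0.0357. With the smaller tail doubled, that is the smallest p that the 56 splits allow. Whether any pair passes therefore depends on this doubling and on how many pairs reach that p. In the raw values the difference was -0.63 for miR-18a to miR-19a, -0.75 for miR-18a to miR-19b and -0.12 for miR-19a to miR-19b, and in the last pair the raw values did not separate (exact permutation p = 0.5). Against partners on the same transcript, the difference was -0.01 for miR-18a to miR-92a (exact permutation p = 0.893), -0.03 for miR-19b to miR-17 (p = 0.607) and -0.06 for miR-19b to miR-20a (p = 0.643), which does not show that these pairs changed alike. It was -0.94 for miR-18a to miR-17 and 0.90 for miR-19b to miR-92a (exact permutation p = 0.0357 and adjusted p = 0.0536 for each). In the raw values the difference was -0.30 for miR-18a to miR-92a, -0.89 for miR-18a to miR-17 and 0.45 for miR-19b to miR-92a.

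**Figure D4:**
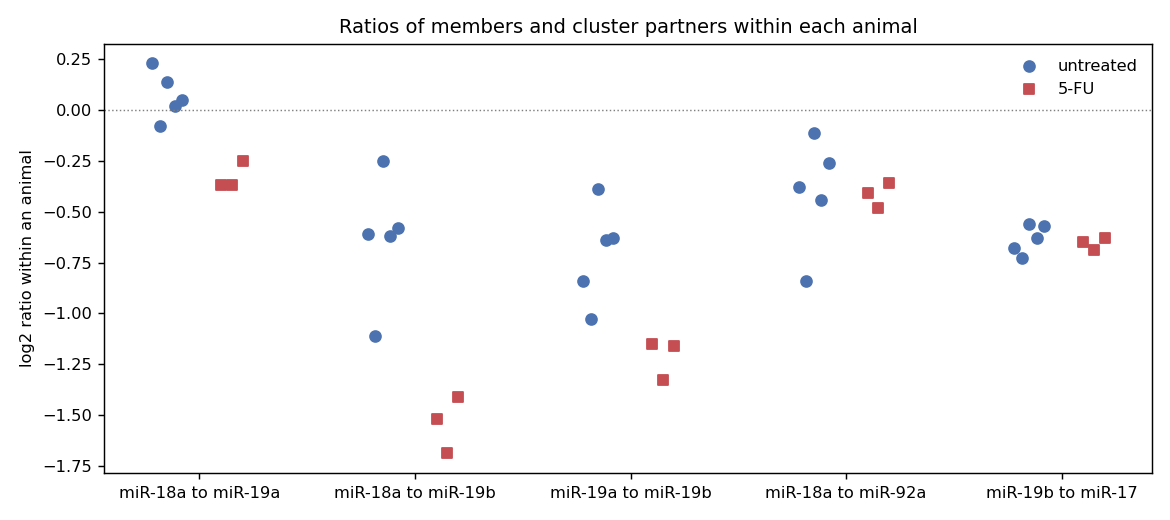
Log2 ratio of pairs of miRNAs within each animal, for the 5 untreated animals (circles) and 3 treated animals (squares). The groups separate for miR-18a to miR-19a, miR-18a to miR-19b and miR-19a to miR-19b, and overlap for miR-18a to miR-92a and miR-19b to miR-17.

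The partners were taken as the other mature miRNAs of the 3 paralogous clusters. Of 9 partners, 4 were called lower (miR-92a, miR-106a, miR-20b and miR-363), 0 higher and 5 did not pass, beside 25.1% of all probes and 44.3% of those above log2 7. Their median change was -0.27. With the animal number as a block 3 of the 4 members and 3 of the 9 partners were called lower, where 10.8% of probes were. On the miR-17-92 transcript, miR-17 and miR-20a, which share a seed and restrain E2F1, changed by -0.27 (SE 0.10, limma adjusted p = 0.0832) and -0.24 (SE 0.14, adjusted p = 0.240). miR-92a, whose hairpin follows that of miR-19b, fell by 1.19 (SE 0.08, limma adjusted p = 0.000279). The members and partners of this 1 transcript thus ranged from -1.20 to -0.24. Of the miR-106a-363 cluster on the X chromosome, miR-106a (-1.16), miR-20b (-1.46) and miR-363 (-2.93) fell together with miR-18b. Within batch 1 their changes were -0.55, -0.70 and -2.99 in the same order. In treated animal 1 their batch 2 array differed from the batch 1 array by -0.69, -0.82 and -0.33, so the changes of miR-106a and miR-20b include a large batch difference. In raw values scaled to an equal total miR-106a was at -0.03 and miR-20b at -0.24, and neither passed, while miR-363 (-1.64) and miR-92a (-0.71) passed with smaller changes. With the animal number as a block miR-363 did not pass (limma adjusted p = 0.0585). Raw fluorescence of miR-363, which lies in bead pool 2, was 192.5 to 794 units in untreated and 71 to 213.5 in treated arrays. The higher water well read 46 for it, so its treated values lay near background. The miR-106b-25 cluster, which lies within the gene Mcm7 and holds neither a miR-18 nor a miR-19 gene, gave -0.03 for miR-106b, -0.24 for miR-93 and -0.05 for miR-25, and 0 of 3 passed.

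**Figure D5:**
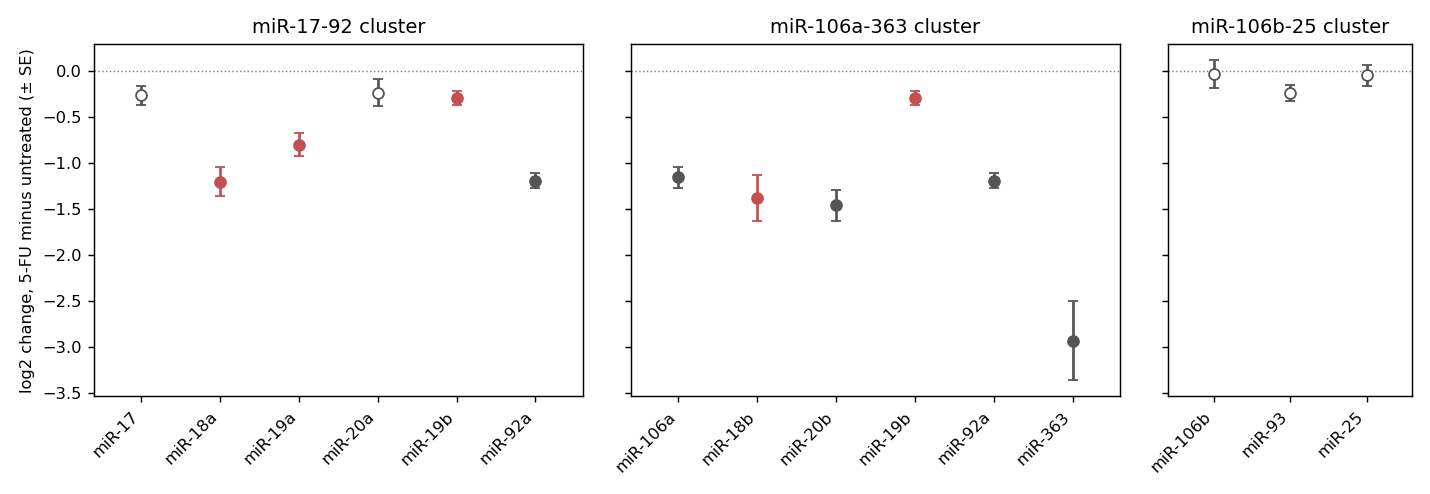
Change (5-FU minus untreated, log2) with its SE from limma for each miRNA of the 3 clusters in the order of the hairpins. Members are red and partners grey, filled points passed an adjusted p of 0.05, and miR-19b and miR-92a, made from both clusters, appear in both. The values run from -2.93 for miR-363 to -0.03 for miR-106b.

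The 5 partners that did not pass had the brightest raw signals of the clusters. Their highest untreated values were 8856 units (miR-25) to 13050 units (miR-20a), against at most 7048 units (miR-92a) in the 4 that fell and a highest value of 14764 among all miRNA probes. Like miR-19b, all 5 were lower on the strongest than on the weakest untreated array, and so was miR-92a, by 0.10. Among them, miR-17 went from 13.06 to 12.66 and miR-20a from 13.50 to 12.86. The part of signal strength in the differences between cluster members was not tested.

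The probe named for the miR-18a hairpin is not taken as a measure of the mature arm, and its sequence was not available here. It read 3.76 to 7.48 in untreated animals, with a median of 5.75, and 3.63 to 4.99 in treated ones, a change of -1.56 that did not pass (SE 0.82, limma adjusted p = 0.177). Its raw signal was 60 to 256.5 units, against 61 in the higher water well. The hairpin-named probes for mir-19a and mir-19b were above the floor in 1 and 2 of 8 animals and were not tested.

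With the 4 members themselves left out, 151 other mouse-named probes lay above the floor on all 9 arrays. Those most like each member over the 8 animals were found by Pearson correlation, which includes the difference between the groups. For miR-18a these were miR-351 (r = 0.992), miR-125a-5p (0.990) and miR-221 (0.989). For miR-18b they were miR-107 (r = 0.991), miR-103 (0.987) and miR-320 (0.986), and for miR-19a miR-20b (r = 0.993), miR-125a-5p (0.987) and miR-107 (0.987). For miR-19b they were its cluster partner miR-17 (r = 0.952), the lymphocyte miRNA miR-150 (0.952) and miR-15b (0.905). Deviations from the group means correlated at 0.854 or above in each of these 12 pairings, over arrays that share their totals. The 12 were picked for likeness over the same animals, so high values are partly built in. Between miR-19a and miR-19b, which differ by 1 base and were not picked for likeness, that correlation was 0.0376.

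The marker lists for endothelium, skeletal muscle, and smooth muscle and stroma moved in the opposite direction to the members. The endothelial list holds the 2 arms of miR-126 alone, and both rose. Of the skeletal muscle markers 3 of 3 measured rose and of the smooth muscle and stroma markers 2 of 3, where 15.6% of all probes were called higher. Which cells the miR-126 signal came from was not tested. Their summed levels on the log2 scale were 10.95 to 11.55 in untreated and 12.26 to 12.44 in treated animals for the endothelial list. For the skeletal muscle list they were 12.23 to 13.24 and 13.64 to 13.74, and for the smooth muscle and stroma list 10.19 to 11.02 and 11.43 to 11.73. Of the 7 haematopoietic markers 3 fell, miR-181a (-0.92), miR-451 (-0.70) and miR-150 (-0.39), beside 44.3% of probes above log2 7 called lower. The list's summed level was 15.18 to 15.68 in untreated and 15.08 to 15.31 in treated animals. The part of these cell types in the falls of miR-18 and miR-19 was not tested.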

How the data were processed

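Per the series design text, the authors profiled miRNAs on beads and deposited log2 values normalized on the assumption of an equal total miRNA signal. The deposited totals were 401283 to 402143 units in batch 1 columns and 355655 to 362039 in batch 2 columns. Raw bead fluorescence, an intensity, was deposited per probe with 3 wells for background. The authors also deposited a p-value and a false discovery rate per probe. The upstream software and its versions were not given in the sources used here. In batch 1 each deposited log2 column equals log2 of raw intensity minus the higher water well plus a constant for each of 2 bead pools.

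Of 582 miRNA probes (12 control rows left out), the 379 above the floor of 3 in at least 3 of 8 animals were tested with limma 3.58.1 (R 4.3.3; lmFit, eBayes, two-sided, Benjamini-Hochberg, threshold 0.05). For 5-FU animal 1 the log2 values of both arrays were averaged first. Ratios were compared by exact permutation (scipy 1.17.1), with the smaller tail doubled for the two-sided p. The fit was also run on simulated data with independent probes and no batch or array-total effect. That run cannot speak to those effects. Raw-value alternatives subtracted the higher water well, scaled, then set the same floor. Rescaled deposited totals and the precontrol beads were alternatives chosen after seeing the data. Members, lists, tests and the naming rule (members, cluster partners, marker miRNAs, and the 3 probes most like each member) were chosen with earlier results of these data known. The hairpin-named probes were added after their values were seen. Other than in the fits by batch, the limma and permutation p-values measure the spread between these animals. That spread does not measure batch, and no untreated array was profiled in the batch that holds most treated arrays. The difference between groups therefore mixes treatment with batch. The fit within batch 1 took its spread from untreated arrays alone. The fit with batch as a term counted both arrays of 5-FU animal 1 separately.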

Additional observations from a re-analysis of the deposited data

Results flagged for a closer look

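In the untreated group of 5, the 4 members, 9 partners and the ratio of miR-18a to miR-19 were each checked for 1 animal far from the others, and 3 of these 14 groups had one. Chance flags about 1 in 20 such groups. The 14 groups share the same 5 arrays and are correlated, so their flags are not independent and no excess over chance can be read from the count. Untreated animal 2 was far below the others for miR-18a, at 11.22, and for miR-18b, at 10.42. The gap to the next animal was 0.758 and 0.714 of the group's range. Untreated animal 3 was far below the others for miR-19b, at 12.10, with a gap of 0.773 of the range. These are the animals whose deposited columns came from the weakest and the strongest array. Without untreated animal 2 the changes were -1.31 for miR-18a and -1.55 for miR-18b, and without untreated animal 3 that of miR-19b was -0.34, all with an adjusted p under 0.05 (limma).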

How the results depend on the processing

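Of the 4 members called lower, 1 was with batch as a term, 0 within batch 1, 2 in equal-total raw values, 2 after median centring and 0 with the precontrol beads. Of the 4 partners called lower, 1 was within batch 1, 2 in equal-total raw values and 0 with the precontrol beads, where limma called 3 of 379 probes in all and 62 had an unadjusted p under 0.05. Leaving out each animal gave 3 to 4 members, 4 to 6 partners and a ratio difference of -0.74 to -0.60. That difference stayed below 0 in all 13 alternatives run. The changes of miR-19b (0.18 after median centring) and miR-106a (0.0781 with the precontrol beads) turned above 0. In the labels, same-numbered animals of the 2 groups share only a number. Their deviations from the group means correlated at 0.05, 0.35 and 0.17, against -0.25 to 0.08 between differently numbered animals. The untreated numbering is itself unsettled, because raw and deposited columns carry different animal numbers. With the number as a replicate block 3 members and 3 partners were called lower, and 52 probes in all against 154. The count of 154 came to 37 with batch as a term, 12 within batch 1 (1 treated array), 95 with the batch 1 array alone, 56 in equal-total and 94 in quantile raw values, 95 without 5-FU animal 2 and 97 without 5-FU animal 3. Without untreated animal 3 miR-17 and miR-20a also passed, giving 6 partners. The cause of these differences was not tested.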
